A study of Danio rerio with 20 samples.

Results

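Described here are 46 genes whose mRNA was higher in every retinal ganglion cell library and every amacrine/horizontal cell library than in any photoreceptor or progenitor library of the embryonic zebrafish retina. They were chosen by their measured levels, in CPM (the count of a gene divided by the summed count of all Ensembl genes of its library and multiplied by 1000000). A gene was taken when the lowest of the 10 ganglion and amacrine/horizontal libraries exceeded the highest of the 10 photoreceptor and progenitor libraries and the mean of the former was at least 5 CPM. Of 8446 genes that reached that mean, 69 were separated in this way, which is 0.817% of them. The rule then left out 14 genes in which a single group stood above all 15 other libraries, 7 in which the progenitors lay below all 15 others, 1 of them by both rules, and 3 genes by name (isl1a, isl2b and pou4f2). The 46 that were left are part of 32520 Ensembl genes in the table. The separation itself is therefore how the genes were chosen and no finding, and it is given without a test.

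The cells came from embryos that carried 3 transgenes, at 42 hours post fertilization, and all 4 groups had all 3. Red fluorescent protein was driven from ath5 sequences in Tg(ath5:gap-RFP), and cyan protein from crx sequences in Tg(crx:gap-CFP). Yellow protein was driven from ptf1a sequences by way of Gal4 in Tg(ptf1a:gal4,UAS:gap-YFP). The gene ath5 is now named atoh7. Ganglion cells were sorted as ath5+,crx-,ptf1a-, amacrine/horizontal cells as ath5+,crx-,ptf1a+, photoreceptors as ath5+,crx+,ptf1a- and progenitors as ath5-,crx-,ptf1a-. Each group had 5 libraries, each library was made from 500 sorted cells by the SmartSeq-2 method, and 25 retinas were pooled for each replicate. A sort on membrane-bound fluorescent proteins under these regulatory regions does not separate amacrine from horizontal cells. The labels do not say whether replicates came from separate clutches, so p-values measure the spread between these samples, which may be technical. In such bulk samples, fewer cells of a type and less RNA per cell cannot be told apart.

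In the vertebrate retina, ganglion cells send the axons of the optic nerve, while amacrine and horizontal cells are inhibitory interneurons whose branches stay within the retina. Atoh7 marks dividing cells that give rise to several of these types, and Ptf1a directs daughters to the amacrine and horizontal fates. Islet and POU4 transcription factors act in the differentiation of particular retinal neurons, ganglion cells among them, and neurons that leave the cell cycle switch on genes of the cytoskeleton, adhesion and synapses.

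Library totals were 21.2 to 30.9 M counts over Ensembl genes (M, counts divided by 1000000), and no library repeated another of its group. Mitochondrial genes, which are part of these totals, took 3.93% in photoreceptor replicate 2 and 15.85% in amacrine/horizontal replicate 1, the lowest and highest shares. Genes detected ran from 12531 in amacrine/horizontal replicate 1 to 17926 in photoreceptor replicate 5. The 13 ganglion cell markers that were found summed to 4056 to 12070 CPM in ganglion libraries and 3765 to 8305 CPM in amacrine/horizontal libraries, so these ranges overlapped, while photoreceptors held 316.1 to 2165 CPM and progenitors 622.5 to 1410.0 CPM. Gene by gene the 13 were not higher in ganglion libraries. Their median log2 difference (ganglion minus amacrine/horizontal) was -0.52, against 0.05 over all genes tested. Among these 13 were the members rbpms2b and alcama, and 5 of the 13 met the separation of the rule. The 14 amacrine markers summed to 1188 to 2557 CPM in ganglion and 3906 to 6228 CPM in amacrine/horizontal libraries, against 217 to 340.5 CPM in photoreceptors and 700.7 to 1097 CPM in progenitors. Of these, gad1b, gad2, slc32a1, slc6a1b and slc6a5, which belong to mature inhibitory transmission, averaged under 1 CPM in ganglion, photoreceptor and progenitor libraries. In amacrine/horizontal libraries slc6a1b and slc6a5 also averaged under 1 CPM. The 7 horizontal cell markers summed to 148.4 to 314.8 CPM in ganglion and 206.4 to 372.3 CPM in amacrine/horizontal libraries, so these ranges overlapped. They held 59.85 to 81.41 CPM in photoreceptors and 49.74 to 131.2 CPM in progenitors. Of these 7, 3 averaged under 1 CPM in ganglion, 2 in amacrine/horizontal, 4 in photoreceptor and 3 in progenitor libraries. The 8 bipolar cell markers summed to 632.2 to 2004 CPM in amacrine/horizontal, 371.8 to 725.9 CPM in ganglion, 334.9 to 474.4 CPM in photoreceptor and 242.5 to 466.5 CPM in progenitor libraries. Of these 8, 5 (cabp5a, cabp5b, grm6a, grm6b and trpm1a) averaged under 1 CPM in each group, so the sums rest on the others. The 18 photoreceptor markers reached 5740 to 8807 CPM in photoreceptors, 1892 to 2342 CPM in ganglion, 1160 to 1455 CPM in amacrine/horizontal and 246.5 to 338.8 CPM in progenitor libraries. Of these 18, 8 averaged under 1 CPM even in photoreceptors, 11 in ganglion, 11 in amacrine/horizontal and 12 in progenitor libraries. Cycling and progenitor markers (20 found) were not confined to progenitors (19340 to 20500 CPM). They reached 17410 to 21220 CPM in photoreceptors, 13950 to 17360 CPM in ganglion and 8457 to 10470 CPM in amacrine/horizontal libraries. The ganglion and amacrine/horizontal sums all lay below the progenitor sums, while the photoreceptor sums overlapped them. Gene by gene the markers leaned towards progenitors, also against photoreceptors. The median log2 difference from progenitors over the 20 genes was -0.45 in photoreceptor, -0.90 in ganglion and -1.48 in amacrine/horizontal cells. Mesenchyme and vessel markers summed to 151.9 to 244.5 CPM in progenitors and to at most 7.43 CPM elsewhere. Markers of pigment, blood, immune, lens and skin cells summed to 1599 CPM in amacrine/horizontal replicate 1 and to 19.1 to 82.0 CPM in the other 4 libraries of that group. In progenitor replicates 1, 2 and 5 they summed to 1848, 2728 and 3712 CPM, against 21.3 and 12.8 CPM in replicates 3 and 4. The part of such cells in the members' values was not tested.

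Membership depended on single libraries. Amacrine/horizontal replicate 1 had a scaling factor of 0.68 by the trimmed mean of M values (TMM), against 0.86 to 1.12 in the other 19 libraries, and the highest ganglion marker sum of its group, 8305 CPM against at most 4403 CPM. Without it the rule gives 57 genes, among them 40 of the 46, because meis2b, stmn2b, dpysl3, gadd45ga, ssbp4 and ahcyl2b then have amacrine/horizontal libraries above all others. Photoreceptor replicate 1 had the highest ganglion marker sum of its group, 2165 CPM, and without it the rule gives 68 genes, all 46 among them. Scaling also decides some members. With TMM-scaled totals the rule gave 56 genes, 37 of them members; hmx4, ssbp4 and ywhah were no longer separated, and stmn2b, stxbp1a, dpysl3, enc3, gadd45ga and ahcyl2b had amacrine/horizontal libraries above all others.

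The 46 genes were not 46 strong differences. Their mean over the 10 ganglion and amacrine/horizontal libraries was 1.58 to 149 times the mean of the other 10, with a median of 5.94. It was at least 5 times in 24 genes, at least 10 times in 14 and under 2 times in 5. The gap between the lowest of the high libraries and the highest of the low ones had a median ratio of 1.29. It was at least 2 in 7 genes and under 1.2 in 16. At the edge, aplp1 (3.96 against 3.93 CPM), hmx4 (90.2 against 89.7 CPM) and phf10 (154.4 against 152.1 CPM) were just inside. Just outside were smarcd1 (390.9 against 393.7 CPM), MYT1 (62.2 against 63.3 CPM) and arf5 (270.7 against 278.6 CPM). The minimum of 5 CPM removed no separated gene, and btbd3b had the lowest mean inside it, 8.95 CPM. Per kilobase of exon, the level over the 10 high libraries ran from 2.27 CPM for map7d2a to 435 CPM for si:dkey-56m19.5, followed by pou4f4 with 369.7, bcl7a with 277.4, rbpms2b with 259.0 and ssbp3b with 229.2 CPM.

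**Figure D1:**
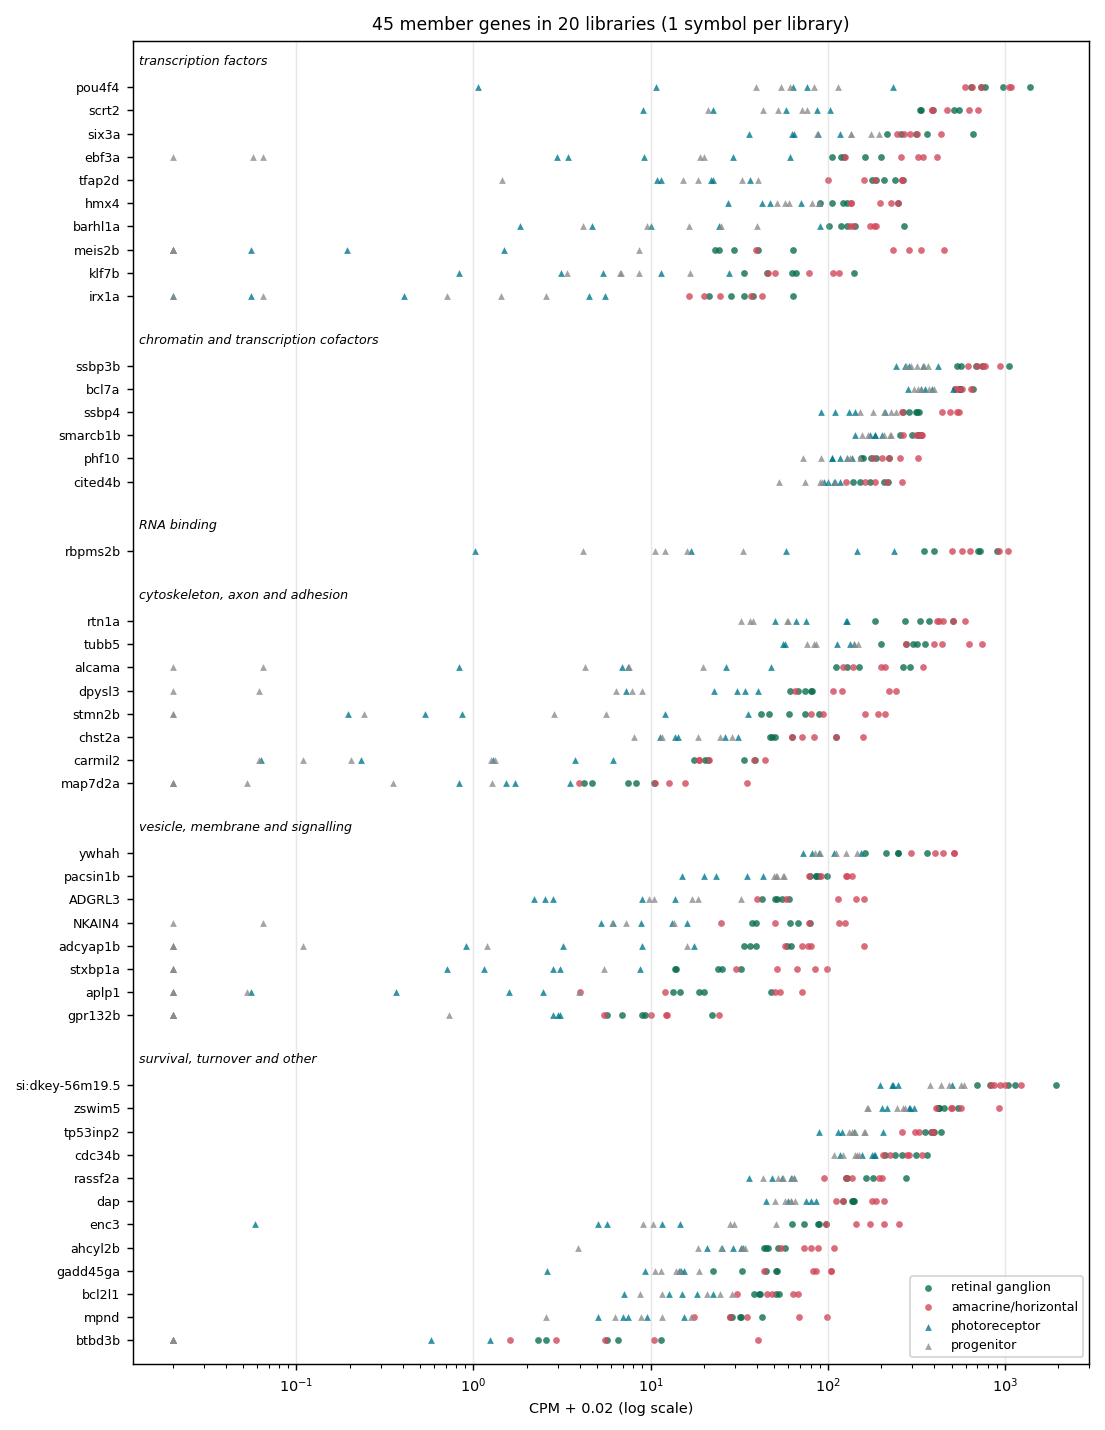
CPM (plus 0.02, log scale) of 45 of the 46 genes in each of the 20 libraries, grouped by role; circles are ganglion and amacrine/horizontal libraries, triangles photoreceptor and progenitor libraries. In each row all circles lie to the right of all triangles, which is how the genes were chosen; the fold between the means runs from 1.58 for bcl7a to 148.9 for meis2b.

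Transcription factors made up 10 of the 46 genes, with fold differences of 2.66 to 149 (median 9.20) between the means of the high and the low libraries. The sorting into roles was made after the values were seen and from general knowledge. The pou4f4 gene (ENSDARG00000044375, GRCz11 chromosome 21, 38312549 to 38315241) encodes a POU homeodomain protein of the family of pou4f1, pou4f2 and pou4f3, known for their roles in ganglion cells. Ganglion replicates 1 to 5 held pou4f4 at 1393, 771, 736, 982 and 647 CPM, and amacrine/horizontal replicates 1 to 5 at 737, 1086, 1050, 651 and 595 CPM. Photoreceptor replicates 1 to 5 held 234, 76.4, 10.7, 1.04 and 63.6 CPM and progenitor replicates 1 to 5 83.9, 39.2, 114, 54.6 and 60.9 CPM. All 10 ganglion and amacrine/horizontal libraries held at least 595.3 CPM, and photoreceptor replicate 1 was the highest of the rest. The ganglion and amacrine/horizontal ranges overlapped widely, with means of 906 ± 299 CPM and 824 ± 229 CPM (SD, n = 5, as for all values with ± here).

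The scrt2 gene (ENSDARG00000056175, GRCz11 chromosome 8, 28527776 to 28534245) encodes a zinc-finger repressor of the Scratch family, found in newborn neurons. In replicate order, its CPM were 549, 334, 515, 332.7 and 391 in ganglion and 390.0, 708, 629.6, 388 and 473 in amacrine/horizontal libraries. Photoreceptors had 102, 9.02, 22.6, 58.1 and 86.6 CPM and progenitors 52.61, 21.0, 76.0, 71.7 and 43.3 CPM. Its gap was the widest of the 46: the lowest high library held 3.25 times the CPM of the highest low library. The irx1a gene (ENSDARG00000101831, GRCz11 chromosome 16, 813780 to 817937), an Iroquois homeobox gene, had the next widest gap, 2.96. Values for irx1a were 63.5, 21.5, 33.7, 37.7 and 28.5 CPM in ganglion and 24.5, 42.5, 36.8, 16.4 and 19.9 CPM in amacrine/horizontal libraries. For irx1a, the photoreceptor libraries gave 5.53, 0.035, 0.39, 0 and 4.48 CPM and the progenitor libraries 0.69, 2.55, 1.41, 0.045 and 0 CPM. It was near 0 in 3 of 5 photoreceptor libraries and reached 5.53 and 4.48 CPM in photoreceptor replicates 1 and 5.

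The largest fold belonged to meis2b (ENSDARG00000077840, GRCz11 chromosome 20, 10098590 to 10120442), a homeobox gene of the TALE class. The 5 ganglion libraries stood at 22.9, 63.7, 24.3, 29.4 and 40.5 CPM and the 5 amacrine/horizontal libraries at 39.2, 286, 233, 338 and 456 CPM. Lower values, 0, 0.035, 0, 1.46 and 0.17 CPM, were found in photoreceptors, and 0, 8.63, 0, 0 and 0 CPM in progenitors. Ganglion libraries all held it at 22.9 CPM or more, while 4 of 5 amacrine/horizontal libraries lay above all of them and replicate 1 did not. Its low side rested on few libraries, since progenitor replicate 2 alone carried 8.63 CPM and photoreceptor replicate 4 alone 1.46 CPM. The ebf3a gene (ENSDARG00000100244, GRCz11 chromosome 12, 42436328 to 42579702) encodes a helix-loop-helix factor of the EBF family. Ganglion replicates 1 to 5 held ebf3a at 199.5, 106, 163, 118.9 and 124 CPM, and amacrine/horizontal replicates 1 to 5 at 259.8, 321, 347, 415 and 125 CPM. Photoreceptor replicates 1 to 5 held 60.8, 3.39, 9.17, 2.96 and 29.0 CPM and progenitor replicates 1 to 5 18.9, 19.9, 0, 0.045 and 0.037 CPM. Progenitor replicates 1 and 2 held 18.9 and 19.9 CPM and the other 3 progenitor libraries at most 0.045 CPM.

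The 5 other transcription factors had folds of 2.66 to 9.74. The AP-2 family gene tfap2d averaged 216 ± 37.5 CPM in ganglion and 195 ± 69.7 CPM in amacrine/horizontal libraries, 9.74 times the mean of the rest, with a gap of 2.51. The Bar-type homeobox gene barhl1a averaged 152 ± 67.4 CPM and 163 ± 25.0 CPM, but photoreceptor replicate 1 came close to the lowest of these libraries with 90.1 CPM. The klf7b gene, a Kruppel-like factor whose mouse ortholog is known for promoting axon growth, averaged 69.8 ± 41.9 CPM and 79.5 ± 31.8 CPM, against 9.71 ± 10.9 CPM in photoreceptors and 8.43 ± 4.98 CPM in progenitors. These 3 genes were thus low, but not absent, in photoreceptors and progenitors. The eye-field homeobox gene six3a was kept at 146 ± 41.4 CPM in progenitors and 73.5 ± 30.4 CPM in photoreceptors, against 361 ± 174 CPM and 312 ± 74.4 CPM in the high groups. The homeobox gene hmx4 had a fold of 2.66.

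A second set of 6 genes, for chromatin and transcription cofactors, had folds of 1.58 to 2.32 (median 1.85). Among them bcl7a, smarcb1b and phf10 encode subunits of BAF, a complex that moves nucleosomes; in mouse, PHF10 belongs to the form found in dividing neural precursors. The phf10 gene (ENSDARG00000070084, GRCz11 chromosome 13, 5978809 to 6001983) had a fold of 1.77. In replicate order, its CPM were 221, 188, 158, 154 and 176 in ganglion and 255, 181, 223, 322 and 201 in amacrine/horizontal libraries. Photoreceptors had 128, 136, 106, 118 and 106 CPM and progenitors 133, 152, 129, 91.5 and 72.9 CPM. The lowest high library, ganglion replicate 4, and the highest low library, progenitor replicate 2, stood at 154.4 and 152.1 CPM. The bcl7a gene averaged 576 ± 47.6 CPM and 563 ± 51.2 CPM in the high groups, 374 ± 84.6 CPM in photoreceptors and 348 ± 37.8 CPM in progenitors. For smarcb1b the means were 309 ± 32.4 CPM, 318 ± 30.9 CPM, 178 ± 22.2 CPM and 197 ± 33.0 CPM in the same order. A list of BAF genes was drawn up after these members were seen, and 29 of its 33 genes could be tested. Without the 3 members, which were chosen on these contrasts, 0 and 0 genes of the list were higher in ganglion cells than in photoreceptors and progenitors, beside 1.27% and 1.99% of all genes tested (edgeR quasi-likelihood test, adjusted p under 0.05). In amacrine/horizontal cells 4 and 3 were higher and 2 and 1 lower, beside 3.94% and 5.61% of all genes higher and 4.77% and 5.51% lower. No range over alternative fits was drawn up for this list. The list's median log2 difference, members included, was 0.36 and 0.05 for ganglion and 0.66 and 0.28 for amacrine/horizontal cells.

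The ssbp3b and ssbp4 genes encode single-stranded DNA binding proteins that hold together the complexes of LIM-homeodomain factors, among which is Isl1. Values for ssbp3b were 1052, 565, 689, 745 and 535 CPM in ganglion and 699, 774, 620.1, 944 and 755 CPM in amacrine/horizontal libraries. For ssbp3b, the photoreceptor libraries gave 419, 345, 272, 242 and 289 CPM and the progenitor libraries 349.5, 368, 321, 277 and 294 CPM. The 10 high libraries started at 535 CPM and the 10 low ones ended at 419 CPM. The ssbp4 gene averaged 303 ± 26.1 CPM in ganglion and 456 ± 116 CPM in amacrine/horizontal libraries, against 137 ± 45.9 CPM and 201 ± 36.5 CPM. Their partner ldb1a, no member and named after its values were seen, stood at 739 CPM in ganglion, 668 CPM in amacrine/horizontal, 785 CPM in photoreceptor and 314.5 CPM in progenitor libraries. The cofactor cited4b, which binds the p300 and CBP acetyltransferases, had a fold of 1.93.

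The single RNA-binding gene was rbpms2b (ENSDARG00000079578, GRCz11 chromosome 7, 48252638 to 48263633), whose mammalian relative RBPMS is a standard marker of ganglion cells. The 5 ganglion libraries stood at 903, 398, 724, 351 and 707 CPM and the 5 amacrine/horizontal libraries at 1038, 925, 637, 501 and 574 CPM. Lower values, 236, 58.5, 16.8, 0.9981 and 146 CPM, were found in photoreceptors, and 33.4, 12.1, 10.6, 4.14 and 16.1 CPM in progenitors. The level in amacrine/horizontal libraries reached that in ganglion libraries. Photoreceptors spread from 0.998 CPM in replicate 4 to 236.0 CPM in replicate 1, and progenitors ran from 4.14 to 33.4 CPM.

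Cytoskeleton, axon and adhesion genes numbered 8, with folds of 3.81 to 19.3 (median 9.74). The alcama gene (ENSDARG00000026531, GRCz11 chromosome 10, 28731749 to 28835812) encodes a cell adhesion molecule found on growing ganglion cell axons of fish. Ganglion replicates 1 to 5 held alcama at 292, 149, 266, 112 and 128 CPM, and amacrine/horizontal replicates 1 to 5 at 209.9, 201, 138, 347 and 122 CPM. Photoreceptor replicates 1 to 5 held 26.5, 7.46, 6.85, 0.81 and 48.0 CPM and progenitor replicates 1 to 5 7.52, 19.8, 0, 0.045 and 4.25 CPM. Its ganglion and amacrine/horizontal ranges overlapped, and its lowest high library held 2.33 times the highest low library. The actin regulator gene carmil2 (ENSDARG00000056639, GRCz11 chromosome 18, 22302635 to 22396371) had a gap of 2.88. In replicate order, its CPM were 33.6, 21.1, 38.6, 17.5 and 20.3 in ganglion and 21.4, 44.3, 18.8, 38.5 and 18.7 in amacrine/horizontal libraries. Photoreceptors had 6.09, 0.21, 0.043, 1.27 and 3.70 CPM and progenitors 1.30, 1.24, 0.041, 0.089 and 0.18 CPM. Photoreceptor libraries ran from 0.043 to 6.09 CPM, and progenitor libraries did not exceed 1.30 CPM.

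Microtubule genes were represented by tubb5, a beta-tubulin, by stmn2b, a stathmin of growth cones, by dpysl3, a collapsin response mediator protein, and by map7d2a, a microtubule-binding protein. Values for stmn2b were 60.4, 46.3, 74.4, 89.0 and 42.0 CPM in ganglion and 80.7, 192, 161, 211 and 93.4 CPM in amacrine/horizontal libraries. For stmn2b, the photoreceptor libraries gave 35.5, 0.18, 0.51, 0.84 and 12.0 CPM and the progenitor libraries 5.58, 2.85, 0, 0 and 0.22 CPM. Photoreceptor replicate 1 came within a factor of 1.18 of the lowest high library, whereas 4 of 5 progenitor libraries held at most 2.85 CPM. The tubb5 gene averaged 290.1 ± 57.8 CPM and 498 ± 186 CPM, 3.81 times the rest. For dpysl3 the means were 73.1 ± 8.45 CPM in ganglion, 152 ± 76.9 CPM in amacrine/horizontal, 27.0 ± 12.7 CPM in photoreceptor and 4.64 ± 4.31 CPM in progenitor libraries. The map7d2a gene averaged 6.99 ± 2.58 CPM and 15.6 ± 11.7 CPM in the high groups. Beside them stood rtn1a, a reticulon of the endoplasmic reticulum, with a fold of 6.05, and the sulfotransferase gene chst2a, with a fold of 4.28.

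Vesicle, membrane and signalling genes numbered 9, with folds of 2.50 to 36.7 (median 8.92). The stxbp1a gene (ENSDARG00000001994, GRCz11 chromosome 21, 13861589 to 13921022) encodes Munc18-1, which is required for synaptic vesicle fusion. The 5 ganglion libraries stood at 25.4, 13.8, 23.9, 32.5 and 13.7 CPM and the 5 amacrine/horizontal libraries at 66.8, 51.8, 30.1, 84.4 and 98.9 CPM. Lower values, 8.69, 1.13, 0.69, 2.80 and 3.05 CPM, were found in photoreceptors, and 5.40, 0, 0, 0 and 0 CPM in progenitors. It was listed at 0 in 4 of 5 progenitor libraries, and 4 of 5 amacrine/horizontal libraries exceeded every ganglion library. The pacsin1b gene (ENSDARG00000042128, GRCz11 chromosome 6, 54187643 to 54271549) acts in endocytosis. Ganglion replicates 1 to 5 held pacsin1b at 85.4, 86.3, 88.8, 99.5 and 79.3 CPM, and amacrine/horizontal replicates 1 to 5 at 91.2, 136, 78.1, 127 and 129 CPM. Photoreceptor replicates 1 to 5 held 35.0, 15.02, 20.1, 23.3 and 43.0 CPM and progenitor replicates 1 to 5 56.7, 49.6, 55.8, 51.2 and 51.4 CPM. Progenitors, at 49.6 to 56.7 CPM, all lay above all photoreceptors, at 15.02 to 43.01 CPM, the only member for which these groups did not overlap, beside 4.13% of all 13838 genes tested with progenitors on top. The opposite order could not appear, since the rule left out genes with progenitors below all others.

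The 14-3-3 adaptor gene ywhah (ENSDARG00000005560, GRCz11 chromosome 10, 17166035 to 17170086) had a fold of 3.21. In replicate order, its CPM were 366, 250.2, 248, 162 and 213 in ganglion and 518, 403, 294, 449.9 and 516 in amacrine/horizontal libraries. Photoreceptors had 155, 72.5, 81.7, 88.7 and 109 CPM and progenitors 112, 145, 127, 90.7 and 85.0 CPM. Its lowest high library, ganglion replicate 4, exceeded photoreceptor replicate 1 by a factor of 1.05. The adcyap1b gene, which encodes the neuropeptide PACAP, averaged 46.03 ± 13.3 CPM and 89.2 ± 40.4 CPM, 14.1 times the rest. The amyloid precursor relative aplp1 had a fold of 36.7 but ran from 3.96 to 71.5 CPM over the amacrine/horizontal libraries alone. The adhesion receptor ADGRL3 (fold 6.57), NKAIN4 (8.92), whose product interacts with the sodium pump, and the receptor gene gpr132b (12.3) completed this set. Capitals mark human-style symbols that could not be tied to a single zebrafish symbol.

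The last 12 genes served cell survival, protein turnover and other tasks, with folds of 1.83 to 50.4 (median 2.78). The highest in CPM of all 46 was si:dkey-56m19.5 (ENSDARG00000068432, GRCz11 chromosome 7, 44713135 to 44717498), which carries no functional name. Values for si:dkey-56m19.5 were 1935, 693, 1145, 1039 and 825 CPM in ganglion and 863, 933, 1007, 1240 and 830.5 CPM in amacrine/horizontal libraries. For si:dkey-56m19.5, the photoreceptor libraries gave 503, 249, 197, 229 and 235 CPM and the progenitor libraries 566, 482, 434, 585 and 376 CPM. It was present in every library, and progenitors lay above 4 of 5 photoreceptor libraries. The lowest was btbd3b (ENSDARG00000087517, GRCz11 chromosome 13, 35041892 to 35051897), a BTB-domain gene. The 5 ganglion libraries stood at 2.29, 11.5, 6.503, 5.69 and 2.56 CPM and the 5 amacrine/horizontal libraries at 40.5, 10.4, 2.90, 5.54 and 1.58 CPM. Lower values, 0, 0, 0.56, 0 and 1.22 CPM, were found in photoreceptors, and 0, 0, 0, 0 and 0 CPM in progenitors. Its mean in amacrine/horizontal libraries came mainly from replicate 1, and it had 0 counts in all 5 progenitor libraries and in 3 photoreceptor libraries.

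The bcl2l1 gene, which encodes the anti-apoptotic protein Bcl-xL, averaged 44.98 ± 6.66 CPM and 51.4 ± 15.08 CPM, 2.83 times the rest. The gadd45ga gene, a growth arrest and DNA damage gene switched on in cells leaving the cycle, averaged 40.6 ± 12.7 CPM and 84.1 ± 24.6 CPM, 4.95 times the rest. Folds were 2.31 for the death-associated gene dap, 2.61 for the autophagy gene tp53inp2, 3.003 for rassf2a, a Ras association domain gene, and 1.83 for cdc34b, a ubiquitin-conjugating enzyme gene. The kelch-BTB gene enc3 (7.81), mpnd (4.56), ahcyl2b (2.54) and the SWIM zinc-finger gene zswim5 (2.13) were the others.

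The members were scattered over the genome. Chromosome 8 held 6 of them, and chromosomes 2, 13 and 21 held 4 each. Only ssbp3b and mpnd lay within 1 Mb of each other, 820191 bases apart on chromosome 8 with 24 genes between them.

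Gene lists drawn from general knowledge were counted in the 4 comparisons that cross the selection, beside the share of all 13838 genes tested (edgeR quasi-likelihood test, adjusted p under 0.05 over all genes). That share was 1.27% higher in ganglion than in photoreceptor cells and 0.838% lower, and 1.99% higher in ganglion than in progenitor cells and 0.889% lower. For amacrine/horizontal cells it was 3.94% higher and 4.77% lower against photoreceptors, and 5.61% higher and 5.51% lower against progenitors. Members were chosen on these contrasts, so their part in a count is no finding, and counts without them are given. Those counts keep list genes that met the same separation but were left out by the exclusions. These are barhl2, scrt1a, dpysl5a, fez1, mllt11, tmsb and rbfox2, and their part is no finding either. Ranges are those of the whole list over 28 alternatives. One list held transcription factors known from the inner retina and from neurons, so it does not stand for transcription factors in general. Of its 67 genes tested, 17 were higher in ganglion than in photoreceptor cells (14 of them no members, range 14 to 24) and 1 lower. Against progenitors, 15 were higher in ganglion cells (11 no members, range 8 to 23) and 0 lower. In amacrine/horizontal cells 31 were higher than in photoreceptors (26 no members, range 20 to 39) and 3 lower, and 28 were higher than in progenitors (22 no members, range 22 to 35) and 0 lower. The members on this list were ebf3a, barhl1a, meis2b, klf7b, irx1a and scrt2. Its median log2 difference against photoreceptors and progenitors, members included, was 1.95 and 1.26 for ganglion and 3.01 and 2.24 for amacrine/horizontal cells. The median over all genes stayed within -0.04 and 0.03. As the members were chosen on these contrasts, their part in these medians is no finding. The pax6a gene, named after its values were seen, is a transcription factor of the list that did not meet the rule: it averaged 495 CPM in ganglion and 917 CPM in amacrine/horizontal but 344.5 CPM in progenitor libraries.

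Of 47 presynaptic genes tested, 1 was a member (stxbp1a). Of these 47, 0 were higher in ganglion than in photoreceptor cells (range 0 to 2) and 1 lower. Against progenitors, 8 were higher in ganglion cells (8 no members, range 4 to 15) and 0 lower. In amacrine/horizontal cells 5 were higher than in photoreceptors (4 no members, range 2 to 11) and 2 lower, and 17 were higher than in progenitors (16 no members, range 3 to 27) and 0 lower. Their summed level was 297 to 492.5 CPM in ganglion, 809 to 1031 CPM in amacrine/horizontal, 1028 to 1391 CPM in photoreceptor and 118.9 to 240.4 CPM in progenitor libraries. The highest of these sums, 1391 CPM, was in a photoreceptor library. Of 95 ion channel and transmitter receptor genes only 20 passed the filter on low counts, and 0 were members. Against photoreceptors and progenitors, 0 and 0 of them were higher in ganglion cells (ranges 0 to 1 and 0 to 2), and 1 and 3 in amacrine/horizontal cells (ranges 0 to 2 and 0 to 6).

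Axon growth and guidance genes gave 2 members among 64 tested, stmn2b and dpysl3. Without these, 4 and 7 genes were higher in ganglion cells than in photoreceptors and progenitors and 2 and 0 lower (whole list 4, range 1 to 11, and 9, range 6 to 12, higher). In amacrine/horizontal cells 11 and 10 other genes were higher and 4 and 5 lower (whole list 11, range 7 to 20, and 12, range 8 to 17, higher). The cytoskeleton list had tubb5 and map7d2a as members among 46 tested. Of the rest, 3 and 6 were higher in ganglion cells and 0 lower against either group (whole list 4, range 2 to 8, and 7, range 4 to 14, higher). In amacrine/horizontal cells 7 and 17 of the rest were higher and 1 and 0 lower (whole list 8, range 6 to 13, and 19, range 9 to 23, higher).

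Of 40 adhesion genes tested, alcama was the member. Among the other 39, 1 and 3 were higher and 0 and 1 lower in ganglion cells, and 4 and 4 were higher and 4 and 1 lower in amacrine/horizontal cells, against photoreceptors and progenitors in that order. The whole list ranged from 1 to 5 and 1 to 6 genes higher in ganglion and from 2 to 9 and 1 to 10 in amacrine/horizontal cells. Of 35 RNA-binding genes tested, rbpms2b was the member. Among the other 34, 0 and 3 were higher and 1 and 0 lower in ganglion cells, and 6 and 8 were higher and 1 and 2 lower in amacrine/horizontal cells. The whole list ranged from 0 to 4 and 1 to 8 genes higher in ganglion and from 1 to 8 and 4 to 9 in amacrine/horizontal cells. Of 32 genes of Notch signalling and neurogenesis tested, gadd45ga was the member. Among the other 31, 7 were higher and 0 lower in ganglion than in photoreceptor cells (whole list 8, range 6 to 10, higher), and 1 was higher and 1 lower than in progenitors (whole list 2, range 1 to 3, higher). In amacrine/horizontal cells 8 of the 31 were higher and 3 lower than in photoreceptors (whole list 9, range 5 to 10, higher). Against progenitors 2 were higher and 10 lower, and the count of lower genes ranged from 6 to 13.

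Zebrafish carry many genes as a and b copies from a genome duplication, and 23 members have a partner copy in the table. None of the 23 partners was a member. Of 8446 genes with a mean of at least 5 CPM, 0.817% were separated before the exclusions, and 46 were members. Not every partner reached that mean, so the sets are not alike. Beside that share, the absence of members among 23 genes is no result about partners. Of the 23 partners, 6 averaged under 1 CPM in each group and 10 under 5 CPM over the 10 ganglion and amacrine/horizontal libraries. Of the 13 with at least 5 CPM there, 7 had both of these group means above both others. The share of all genes with that order was not counted. Partner rtn1b averaged 63.0 ± 30.0 CPM in ganglion and 140.9 ± 73.9 CPM in amacrine/horizontal libraries, against 11.1 ± 18.0 CPM in photoreceptors and 1.38 ± 2.999 CPM in progenitors (SD, n = 5 each). Likewise stmn2a stood at 27.3 ± 15.9, 60.0 ± 23.5, 9.50 ± 15.5 and 2.27 ± 5.07 CPM, and rbpms2a at 38.0 ± 15.2, 152.6 ± 64.4, 17.3 ± 12.2 and 8.99 ± 5.43 CPM in the same order. These partners followed the pattern of rtn1a, stmn2b and rbpms2b in their means but not in every library.

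Other pairs were split between cell groups. Whereas stxbp1a was highest in amacrine/horizontal libraries, stxbp1b averaged 223 ± 58.0 CPM in photoreceptors, 18.9 ± 7.998 CPM in ganglion, 7.997 ± 7.77 CPM in amacrine/horizontal and 0.42 ± 0.81 CPM in progenitor libraries. Partner cdc34a was also highest in photoreceptors, at 33.0 ± 14.8 CPM, against 4.06 ± 4.58, 21.8 ± 10.01 and 7.14 ± 4.86 CPM in ganglion, amacrine/horizontal and progenitor libraries. The eye-field partner six3b averaged 285 ± 65.7 CPM in progenitors, 222.5 ± 56.1 in ganglion, 265 ± 68.7 in amacrine/horizontal and 70.0 ± 16.2 in photoreceptor libraries. In its means, six3b was thus not lower in progenitors than in the neurons. Copies smarcb1a (206, 147, 199 and 172 CPM in ganglion, amacrine/horizontal, photoreceptor and progenitor libraries) and alcamb (374, 212, 172 and 113 CPM) were abundant without a clean split. The meis2a copy stood at 25.9 ± 23.2 CPM in amacrine/horizontal libraries and at 0.37 ± 0.83 CPM in ganglion libraries. Copies ssbp3a, ebf3b, irx1b, ahcyl2a, adcyap1a, gpr132a, rassf2b, chst2b and btbd3a averaged under 2 CPM in each group. Reads were counted without strand, so a gene and an antisense neighbour cannot be told apart. How reads shared by alike copies were assigned is not given in the sources used here, so levels of close copies are uncertain.

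Summed over the 46 genes, libraries held 9884 ± 2092 CPM in ganglion, 11800 ± 1118 CPM in amacrine/horizontal, 3152 ± 810.9 CPM in photoreceptor and 3276 ± 241 CPM in progenitor samples (SD, n = 5 each). Ganglion replicate 1 was the highest of its group in 28 members and summed to 13480 CPM, against 8245 to 9890 CPM in the other 4. It also had the highest ganglion marker sum of all libraries, 12070 CPM. Without it the rule gave 43 genes, 41 of them members. Photoreceptor replicate 1 summed to 4437 CPM, against 2489 to 3428 CPM in the other photoreceptor libraries. It was the highest of the 10 low libraries in 18 of the 46 members, ahead of photoreceptor replicate 5 with 7 and progenitor replicate 2 with 6. The ganglion marker sum of these libraries, of which rbpms2b and alcama are part, was 2165 CPM in photoreceptor replicate 1, 1238 in replicate 5, 987.2 in replicate 2, 351.5 in replicate 3 and 316.1 in replicate 4. The part of ganglion-type cells or RNA in photoreceptor replicate 1 was not tested. Among the 22 genes that met the rule only without that library were elavl3, ebf2, snap25a, stmn2a, rtn1b, nes, id4 and eomesa, named after their values were seen.

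**Figure D2:**
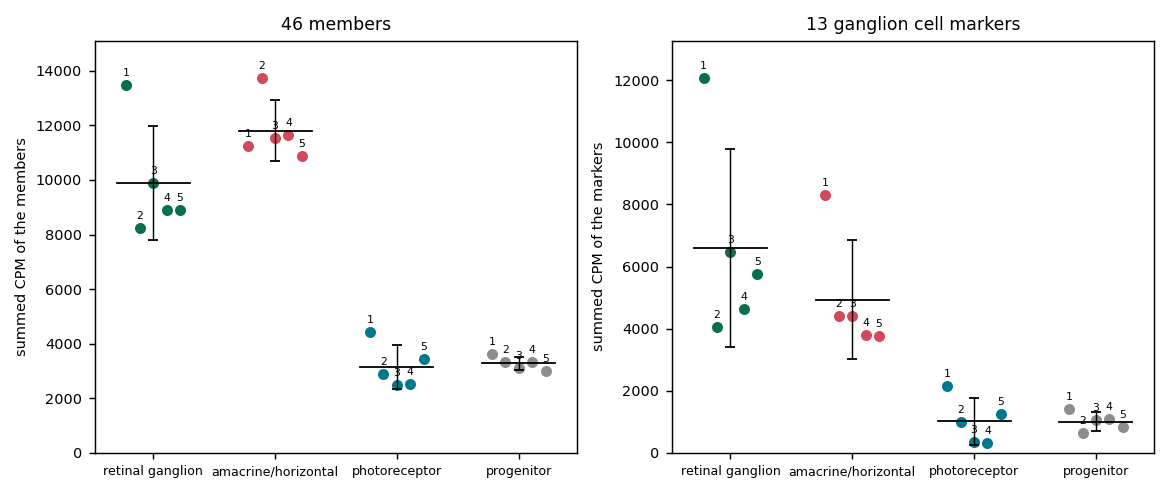
Summed CPM of the 46 members (left) and of 13 ganglion cell markers (right) in each library, with the replicate number above each point; horizontal lines are means and bars SD (n = 5). Ganglion replicate 1 (13480 CPM of members, 12070 CPM of markers) and photoreceptor replicate 1 (4437 and 2165 CPM) are the highest of their groups in both panels. Both sums include rbpms2b and alcama, and 5 of the 13 markers met the separation of the rule, so the panels are not separate measures.

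The labels give each library a track number, and these fall into 2 separate ranges, a lower with 7 libraries and a higher with 13. What a track is was not given in the sources used here. Within the higher range the summed level was 8897 to 9890 CPM in 3 ganglion, 10870 to 13730 CPM in 4 amacrine/horizontal, 2489 to 3428 CPM in 3 photoreceptor and 2988 to 3323 CPM in 3 progenitor libraries. The lower range held a single amacrine/horizontal library, at 11250 CPM, beside 8245 and 13480 CPM in ganglion, 2872 and 4437 CPM in photoreceptor and 3321 and 3624 CPM in progenitor libraries.

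How the members differ within the high pair was tested between ganglion and amacrine/horizontal cells. The rule had left out genes with all amacrine/horizontal libraries above all others, which touches this contrast; 14 genes went that way and 0 for ganglion cells. None of the 46 members passed the threshold (edgeR quasi-likelihood test, adjusted p under 0.05), beside 114 of 13838 genes, or 0.824%, over all genes. At an unadjusted p under 0.05 there were 12 members, beside 13.8% of all genes. DESeq2 called 4 (ywhah, ssbp4, gadd45ga and tubb5), beside 696 genes or 5.03% in all. With limma-voom 6 passed (ywhah, ssbp4, gadd45ga, meis2b, stmn2b and enc3), beside 434 genes or 3.14% in all. Each of these calls was lower in ganglion cells. With TMM scaling 44 of the 46 estimates were lower in ganglion cells, with a median log2 difference of -0.59, against 0.05 over all genes. By plain CPM means 37 were higher in amacrine/horizontal and 9 in ganglion libraries, so this lean depends in part on scaling.

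The largest estimate was that of meis2b, -2.99 on the log2 scale (ganglion minus amacrine/horizontal, SE 1.27, adjusted p 0.269 by edgeR's quasi-likelihood test). Its adjusted p over the alternatives ran from 0.021 to 0.44, and it passed with limma-voom and in a fit of these 2 groups alone. Next came stxbp1a with -1.79 (SE 1.22, edgeR adjusted p 0.604) and btbd3b with -1.54 (SE 1.41, edgeR adjusted p 0.758); the latter was 0.10 without amacrine/horizontal replicate 1. The estimates of stmn2b, -1.40 (SE 1.14, edgeR adjusted p 0.7096), and map7d2a, -1.33 (SE 1.21, edgeR adjusted p 0.754), did not pass either. Nearest the threshold was ywhah, with a smaller but more precise estimate of -1.05 (SE 0.26, edgeR adjusted p 0.0686). Besides DESeq2 and limma-voom, it passed with the replicate block and with the track range as a covariate. It did not pass in the fit of these 2 groups alone or in the higher track range. Only irx1a and tp53inp2 had estimates above 0. For irx1a it was 0.18 (SE 1.15, edgeR adjusted p 0.979) and for tp53inp2 0.01 (SE 0.20, edgeR adjusted p 0.992), and both turned below 0 in fits without a single library (ganglion replicate 1 for irx1a, amacrine/horizontal replicate 4 or 5 for tp53inp2). No member had all ganglion libraries on a single side of all amacrine/horizontal libraries, which the rule itself ensures.

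**Figure D3:**
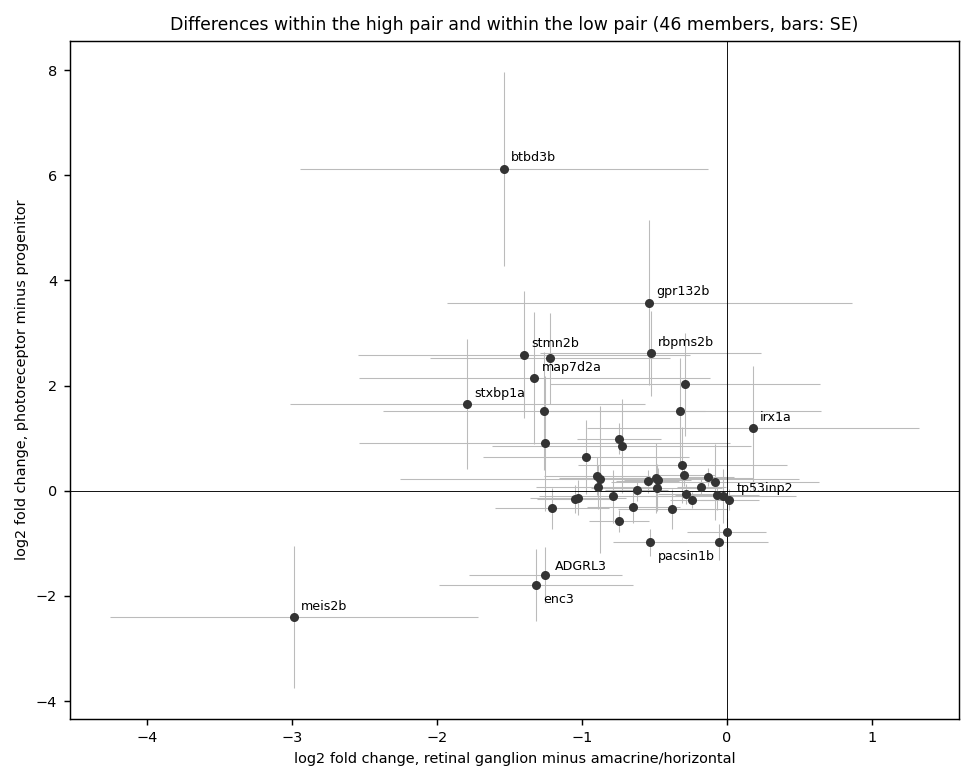
Log2 fold change of each of the 46 members between ganglion and amacrine/horizontal cells (x axis) and between photoreceptors and progenitors (y axis), with SE bars from edgeR. Points lie mostly left of 0 (44 of 46) and on both sides of 0 in height (28 above, 18 below); the height of btbd3b rests on progenitor counts of 0 and is no measured fold.

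Within the low pair, 1 member passed the test between photoreceptors and progenitors, and that count depended on the fit. It was 6 with DESeq2 (9.91% of all genes) and 3 with limma-voom (9.36%). In the higher track range alone it was 6, beside 583 of 14313 genes in all. The fit of the 2 groups alone gave 0 of 42 members tested, beside 992 of 12044 genes in all. Without the filter on low counts it was 0, beside 614 of 27508 genes in all. The rule had removed 7 genes with progenitors below all others, which touches this contrast too. The pacsin1b gene was lower in photoreceptors (27.3 ± 11.5 CPM) than in progenitors (52.9 ± 3.09 CPM), by -0.98 on the log2 scale (photoreceptor minus progenitor, SE 0.26, edgeR adjusted p 0.0261). Over all genes 718, or 5.19%, passed. All 5 progenitor libraries exceeded all 5 photoreceptor libraries for pacsin1b, but its call was lost in 8 of 28 alternatives, and over all 28 the adjusted p ran from 0.0019 to 0.0891. The call was lost in the fits without photoreceptor replicate 2, 3 or 4, without progenitor replicate 3 or 5, without the filter on low counts, of the 2 groups alone and of the higher track range alone.

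The other 45 members did not pass. Nearest the threshold was rtn1a, higher in photoreceptors by an estimated 0.99 (SE 0.29, edgeR adjusted p 0.05255). It passed with DESeq2, with DESeq2 size factors in edgeR, with the replicate block and without some single libraries. It did not pass with limma-voom, in the fit of the 2 groups alone, in the higher track range or without photoreceptor replicate 1. The rbpms2b gene was higher in photoreceptors by an estimated 2.62 (SE 0.81, edgeR adjusted p 0.0652), with photoreceptor means of 91.7 ± 98.4 CPM and progenitor means of 15.3 ± 11.02 CPM. It passed with DESeq2 and without photoreceptor replicate 3 or 4 or progenitor replicate 1, and its adjusted p over 28 alternatives ran from 0.0049 to 0.83. ADGRL3, at -1.60 (SE 0.53, edgeR adjusted p 0.0893), and enc3, at -1.80 (SE 0.68, edgeR adjusted p 0.149), leaned towards progenitors. The estimate for gpr132b was 3.58 (SE 1.56, edgeR adjusted p 0.240), and that for meis2b was -2.40 (SE 1.35, edgeR adjusted p 0.438). The meis2b value came from progenitor replicate 2, since the other progenitor libraries held 0 counts. It was 5.98 without that library, which is then no measured fold. Photoreceptors held 38 meis2b counts in replicate 4 and at most 4 in any other library. For btbd3b (edgeR adjusted p 0.0659), photoreceptors held 41 counts over the group and progenitors 0, which makes it at least 14.3-fold higher in photoreceptors when 3 counts are set against the summed progenitor libraries. The 41 counts lay in photoreceptor replicates 3 (13) and 5 (28), and without replicate 5 the bound was 5.59-fold. Estimates were above 0 in 28 members and below 0 in 18, and without photoreceptor replicate 1 in 20 and 26. The median log2 difference was 0.17, against 0.02 over all genes, and -0.16 without that library. The lean of the 46 genes towards photoreceptors thus changed side with that library.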

How the data were processed

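Polyadenylated RNA of 20 samples of 500 sorted cells was measured by SmartSeq-2 sequencing. The deposited values are raw read counts per gene; per the submitters' processing notes and the file header, the authors used bcl2fastq 2.19.1, GSNAP and featureCounts 1.6.3 on GRCz11 with Ensembl annotation, without strand. Spike-in rows (92, at most 1.945e-05% of a library) were left out. CPM used the sum over 32520 Ensembl genes. Tests used edgeR 4.0.16 (R 4.3.3) with filterByExpr (13838 genes), TMM factors, all 20 libraries and the quasi-likelihood test, with Benjamini-Hochberg adjustment over all genes and a threshold of 0.05. DESeq2 1.42.0 and limma 3.58.1 were alternatives. The edgeR test was also run on simulated, independent libraries. They lacked differences in composition like those seen here, so that run does not vouch for the tests in these samples.

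Members and gene lists were chosen with earlier results of these data known. Tests are printed for the 5 members with the largest log2 change in each direction between ganglion and amacrine/horizontal cells, the 3 largest between photoreceptors and progenitors, and those past the threshold. Those of rtn1a (photoreceptors against progenitors) and ywhah (ganglion against amacrine/horizontal cells) were added after they were seen, being nearest the threshold. Levels are printed for members in a list, the 10 highest, the 10 with the widest gap and those at the rule's edges. For zswim5, rtn1a and gpr132b among these, folds stand in place of group means. Other members were named after their values were seen. Only 2 members leaned towards ganglion cells, so 2 are given there. The values of 1 member are not reported here; it stays in the counts and sums. Human-style symbols of 27 members were resolved by matching the chromosome in RefSeq, and 2 (ADGRL3 and NKAIN4) could not be.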

Additional observations from a re-analysis of the deposited data

Results flagged for a closer look

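For 30 named members, each group of 5 libraries was searched for a library far from the other 4 on the scale of log2(CPM + 1), with Dixon's criterion at 0.71. Of 120 groups 9 had one. The rate of about 1 in 20 by chance holds for normally distributed values and was not checked for these. Where the other 4 libraries all held 0, the ratio is 1.0 whatever the remaining library holds. This was so for meis2b, stxbp1a and gpr132b in progenitors, and that rate does not apply to them.

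In meis2b this happened in 3 groups. Amacrine/horizontal replicate 1 held 39.19 CPM against 233.3 to 455.6 CPM, photoreceptor replicate 4 held 1.459 CPM against 0 to 0.1741 CPM, and progenitor replicate 2 held 8.632 CPM where the others had 0. Amacrine/horizontal replicate 1 was also apart in gadd45ga, with 43.86 CPM against 82.61 to 104.4 CPM. Progenitor replicate 2 was apart in adcyap1b, with 16.05 CPM against 0 to 1.167 CPM. Progenitor replicate 1 alone held stxbp1a, at 5.404 CPM, and progenitor replicate 3 alone held gpr132b, at 0.7047 CPM. For si:dkey-56m19.5, photoreceptor replicate 1 held 503.3 CPM against 196.9 to 249.0 CPM. For bcl7a, ganglion replicate 2 held 661.0 CPM against 549.4 to 557.5 CPM.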

How the results depend on the processing

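The 46 members were 43 to 68 when a library was left out, and the number stayed within 1.5 times under every alternative run. Between ganglion and amacrine/horizontal cells, 0 members passed with edgeR, 4 with DESeq2 and 6 with limma-voom. In a fit of those 2 groups 1 passed (94 of 11333 genes in all). With the track range as a covariate 1 passed (106 of 13838 genes in all). When a library was left out, 0 to 2 passed, with 2 in the fit without photoreceptor replicate 1 (131 of 14528 genes in all). Between photoreceptors and progenitors 1 passed, and 2 did with DESeq2 size factors (718 of 13838 genes in all). It was 6 with DESeq2, 3 with limma-voom, 0 without the filter and 0 in the fit of 2 groups. With the track covariate 2 passed (705 of 13838 genes in all). In the higher track range (added after seeing the data) 6 passed (583 of 14313 genes in all). When a library was left out, 0 to 5 passed, with 5 in the fit without photoreceptor replicate 1 (737 of 14528 genes in all). With the replicate block the counts were 1 and 4 (89 and 745 of 13838 genes in all). Correlations of same-numbered libraries ran from -0.0564 to 0.153, and most were above 0. Between libraries numbered 5 all were above 0 (0.0116 to 0.153). Differently numbered libraries gave -0.0893 to 0.0779. Not every library correlated best with its own number. Whether equal numbers share a pool of retinas is not given in the labels, so pairing was not settled. The main tests did not use it.

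Estimates that changed sign had no call. Leaving out a library moved btbd3b (ganglion minus amacrine/horizontal) from -1.91 to 0.10, tp53inp2 from -0.063 to 0.099 (-0.01 without amacrine/horizontal replicate 5), irx1a from -0.06 to 0.34 and meis2b (photoreceptor minus progenitor) from -4.90 to 5.98. The last was 0.43 with limma-voom and 6.66 in the higher track range. Its values of 5.98 and 6.66 rest on progenitor counts of 0 and are no measured folds. The cause of the sign changes in the other genes was not tested. Counts of all genes ranged from 60 to 696 (ganglion against amacrine/horizontal), 508 to 1372 (photoreceptor against progenitor), 163 to 764 and 249 to 926 (ganglion against photoreceptor and progenitor), and 553 to 2141 and 600 to 2490 (amacrine/horizontal against the same). Of 64 list counts 51 moved past 1.5 times in some alternative, 45 of them from under 10 genes. Low counts limit btbd3b, gpr132b and map7d2a. Promoter motifs were not run.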
